A study of Sus scrofa with 12 samples.

Results

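miR-126, its host gene EGFL7 and 3 further groups of miRNAs known from blood vessels were examined in pig ovaries. Members were taken by name, as every mature miRNA named miR-126, miR-221, miR-222, miR-23a, miR-23b, miR-24, miR-27a or miR-27b, on either arm, and as the gene EGFL7. This gave 13 of the 457 mature miRNAs listed and 1 of the 29884 genes listed, 14 members in all, and all 14 passed the filter on low values. The rule itself uses names and no measured value.

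The left ovary was collected from sows of 1 commercial herd, 4 days after their 4th delivery. The small litter size (SLS) group was sows with 8.48 ± 0.53 piglets per litter and the large litter size (LLS) group was sows with 16.19 ± 0.43 (mean ± SEM, the error the methods state for all results). No treatment or genetic change was applied, and the groups differ in recorded litter size. Each group holds 3 ovaries, named ZD2, ZD3 and ZD12 for SLS and ZD5, ZD7 and ZD8 for LLS, and each ovary gave 1 small RNA library and 1 library of total RNA depleted of ribosomal RNA, 12 libraries in all. A whole ovary mixes corpora lutea, follicles, stroma, vessels and blood, so fewer cells of a type and less RNA per cell cannot be told apart in any value below.

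miRNAs are short RNAs cut from a hairpin precursor, in which the 5p arm precedes the loop and the 3p arm follows it. Bases 2 to 8 of the mature miRNA, the seed, pair with messenger RNAs that are then repressed. miR-126 is known as the miRNA of endothelial cells, where its hairpin lies inside EGFL7, which codes for a secreted protein of the vessel wall, and where it acts on growth factor signalling through SPRED1 and PIK3R2. miR-221 and miR-222 are known to act on KIT and CDKN1B. The miR-23, miR-27 and miR-24 families are made in clusters, and miR-23 and miR-27 are known to act on SPRY2 and SEMA6A in sprouting vessels. The corpus luteum is among the most densely vascularised tissues of the adult, which is the setting in which these members were read.

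The mature sequences are shown because the seeds sort the 13 miRNAs into 9 groups. They are printed 5′ to 3′ with T for U, as deposited, with the seed in capitals. The 2 arms of miR-126 have unrelated seeds.
miR-126-3p: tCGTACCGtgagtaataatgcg
miR-126-5p: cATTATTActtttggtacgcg
miR-221-3p: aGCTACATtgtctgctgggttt
miR-222: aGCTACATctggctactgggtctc
miR-221-5p: aCCTGGCAtacaatgtagatttctgt
miR-23a: aTCACATTgccagggatttcc
miR-23b: aTCACATTgccagggattacca
miR-27a: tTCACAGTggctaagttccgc
miR-27b-3p: tTCACAGTggctaagttctgc
miR-27b-5p: aGAGCTTAgctgattggtgaaca
miR-24-3p: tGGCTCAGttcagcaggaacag
miR-24-1-5p: gTGCCTACtgagctgaaacacagt
miR-24-2-5p: gTGCCTACtgagctgatatcagt

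miR-221-3p and miR-222 share a seed but are identical at only 11 of the 22 bases compared from the 5′ end. miR-23a and miR-23b differ at 1 of 21 bases, T19A from miR-23a to miR-23b with positions counted from the 5′ end, and miR-27a and miR-27b-3p differ at 1 of 21, C19T from miR-27a to miR-27b-3p. How reads that fit both of such a pair were counted is not given in the sources used here, so the split within each pair is uncertain. miR-24-3p is the same 22 bases from both of its hairpins and cannot be assigned to either, whereas its 5p arms, miR-24-1-5p and miR-24-2-5p, are identical at 17 of 23 bases. miR-222, miR-23a, miR-23b and miR-27a are listed without an arm, and each lies on the 3p arm of its hairpin.

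The 13 miRNAs come from 9 hairpins on Sscrofa11.1, and each deposited sequence equals the reference at its annotated place. MIR126 spans 1108695 to 1108767 on the minus strand of an unplaced scaffold. It lies inside EGFL7 (1107088 to 1119033, same strand), intronic in 15 of 15 annotated transcripts and exonic in 0, and most often in the intron from 1108691 to 1109022 (7 transcripts). The hairpin is shown because both arms were read from it. The arms are in capitals.
MIR126: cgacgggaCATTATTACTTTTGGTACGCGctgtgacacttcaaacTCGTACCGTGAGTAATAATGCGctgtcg

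MIR23A, MIR27A and MIR24-1 form a cluster of 408 nt on chromosome 2 (65308117 to 65308524, plus strand) outside annotated genes, the nearest being ZSWIM4. MIR23B, MIR27B and MIR24-2 form a cluster of 860 nt on chromosome 10 (27079417 to 27080276, minus strand). This cluster is intronic in 8 of 12 transcripts of C10H9orf3 (27078115 to 27472347), the name in this table and annotation of the aminopeptidase gene AOPEP. MIR221 and MIR222 together span 820 nt on the X chromosome (40571068 to 40571887, minus strand), with no host gene annotated on that strand. Thus miR-126 and the chromosome 10 cluster have an annotated host gene that can be read in the total RNA libraries. The other members have none in this annotation, which does not show that they lack a host transcript.

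The small RNA libraries held 3537619 to 9854086 reads and the total RNA libraries 32272803 to 60903268, as recovered from the deposited values. ZD8 stood apart: the summed FPKM of 7 luteal genes was 124 there and between 9167 and 12191 in the other 5 ovaries, while the summed FPKM of 3 theca cell genes was 446 there against 27.03 to 105, and of 5 oocyte genes 122 against 6.25 to 21.9. Results are therefore also given without ZD8. FPKM scales the reads of a gene by transcript length and library total, and RPM scales the reads of a miRNA by the total of its small RNA library. A list of 20 endothelial genes, all of which passed the filter, was read beside miR-126 in every ovary. The cells from which the measured miR-126 came were not tested.

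miR-126-3p was among the most abundant miRNAs of the ovary. It was at 86100 RPM in ZD2, 60244 in ZD3 and 28118 in ZD12 of the SLS group, and at 68953 in ZD5, 100881 in ZD7 and 21359 in ZD8 of the LLS group. These are 8.61, 6.02, 2.81, 6.90, 10.1 and 2.14% of all miRNA reads, and they rank it 2nd, 4th, 10th, 3rd, 2nd and 15th of 457 miRNAs in the same ovaries. Both groups thus hold high and low ovaries, and ZD12 and ZD8 stood below the other 4. The highest level was 4.72-fold the lowest. The SD of log2(RPM + 1) over the 6 ovaries was 0.90, against a median of 0.55 over the 353 tested miRNAs, of which 16.7% had a larger SD. ZD12 and ZD8 also have the largest small RNA totals, 9854086 and 8688519 reads, and whether depth had a part in their low values was not tested.

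miR-126-5p, the other arm, was at 800, 883 and 409 RPM in the SLS ovaries and at 903, 1000 and 369 RPM in the LLS ovaries. ZD12 and ZD8 were again the lowest, and the highest level was 2.71-fold the lowest. There were 108, 68.3 and 68.7 reads of miR-126-3p for each read of miR-126-5p in ZD2, ZD3 and ZD12, and 76.3, 101 and 57.8 in ZD5, ZD7 and ZD8. The arm ratio was highest in ZD2 and ZD7, the ovaries with the most miR-126-3p. It was 81.5 ± 22.6 (SD, n = 3) in SLS and 78.3 ± 21.6 (SD, n = 3) in LLS, a difference within the spread between ovaries (exact two-sided permutation test, p = 0.9).

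**Figure D1:**
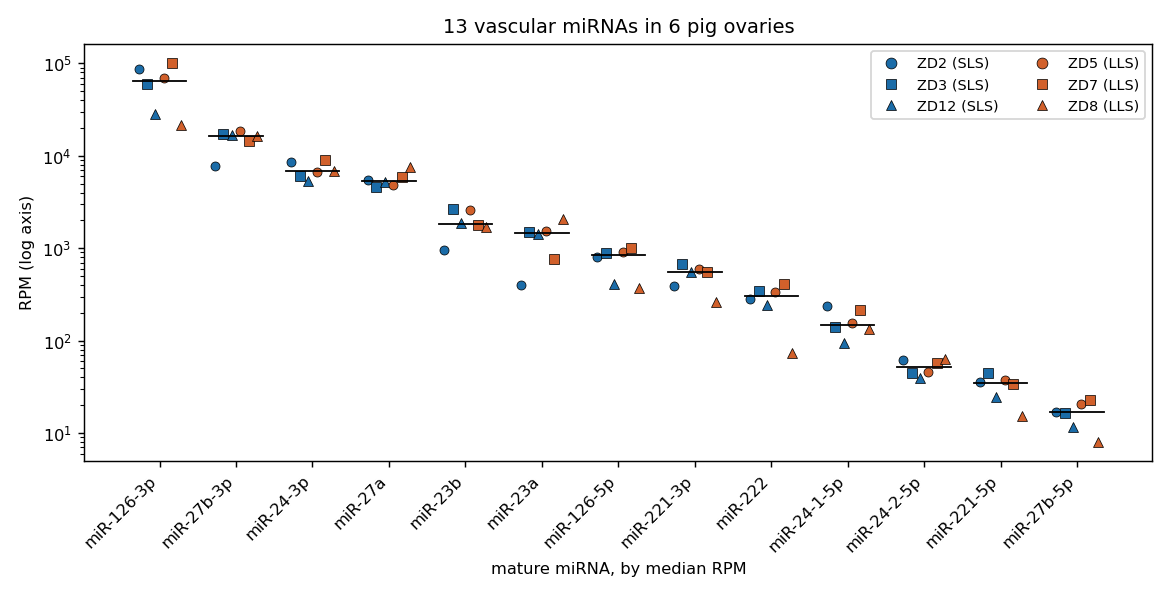
RPM on a log axis of the 13 mature miRNAs in each of the 6 ovaries, ordered by median RPM. Points are ovaries (blue SLS, orange LLS) and black lines are medians over the 6 ovaries. miR-126-3p spans 21359 to 100881 RPM, and the points of both groups overlap for every miRNA.

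miR-27b-3p was the next most abundant member by median. It was at 7673, 17376 and 16722 RPM in ZD2, ZD3 and ZD12 and at 18615, 14260 and 16310 RPM in ZD5, ZD7 and ZD8, so that ZD2 alone was low and the other 5 were close together. miR-24-3p, read from both clusters, was the steadier one, at 8517, 5983 and 5321 RPM in the SLS ovaries and 6720, 9020 and 6861 RPM in the LLS ovaries. miR-27a was at 5433, 4559 and 5146 RPM in the SLS ovaries and 4815, 5820 and 7584 RPM in the LLS ovaries. The highest was 1.69-fold the lowest for miR-24-3p and 1.66-fold for miR-27a, and miR-24-3p exceeded miR-27a in every ovary except ZD8. These neighbouring levels therefore overlap, whereas miR-126-3p exceeded every other member in each of the 6 ovaries. Levels of different miRNAs also depend on how well each sequence is captured in library preparation.

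miR-23a was at 400, 1485 and 1434 RPM in ZD2, ZD3 and ZD12 and at 1532, 755 and 2075 RPM in ZD5, ZD7 and ZD8. It was lowest in ZD2 and ZD7, the pair of ovaries in which miR-126-3p was highest, and it had a 5.19-fold range. miR-23b was at 967, 2625 and 1890 RPM in the SLS ovaries and 2618, 1781 and 1685 RPM in the LLS ovaries, lowest in ZD2. ZD2 and ZD7 were the lowest pair for 2 of the 13 members (miR-23a and miR-27b-3p) and the highest pair for 3 (miR-126-3p, miR-24-3p and miR-24-1-5p). Over all 353 tested miRNAs the same pair was lowest for 71 (20.1%) and highest for 55 (15.6%). The pattern was noticed after the values were seen, and it was common among the miRNAs of these libraries.

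miR-221-3p was at 386, 669 and 549 RPM in the SLS ovaries and at 595, 559 and 259 RPM in the LLS ovaries. Its cluster partner miR-222 was at 280, 341 and 244 RPM in the SLS ovaries and at 334, 408 and 74.4 RPM in the LLS ovaries, with ZD8 far below the rest and a 5.49-fold range. Both were lowest in ZD8. In total 6 of the 13 members, both arms of miR-126 and of miR-221, miR-222 and miR-27b-5p, were lowest in ZD8, as were 141 of the 353 tested miRNAs (39.9%).

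The less abundant arms rest on few reads. miR-27b-5p was at 16.8, 16.7 and 11.7 RPM in the SLS ovaries and at 20.6, 23.03 and 8.06 RPM in the LLS ovaries. The lowest value, in ZD8, was 70 reads (Wilson 95% interval 6.38 to 10.2 RPM). The highest, in ZD7, was 156 reads (19.7 to 26.9 RPM), and these intervals do not overlap. miR-221-5p ranged from 15.3 RPM in ZD8 to 44.4 RPM in ZD3. miR-24-1-5p ranged from 94.99 RPM in ZD12 to 238 RPM in ZD2, and miR-24-2-5p from 39.8 RPM in ZD12 to 64.0 RPM in ZD8. The intervals cover counting error only and take reads as independent, which reads amplified by PCR are not. They do not measure the spread between ovaries of a group.

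Ratios within a library do not depend on its scaling. On chromosome 10, there were 7.93, 6.62 and 8.85 reads of miR-27b-3p for each of miR-23b in ZD2, ZD3 and ZD12, and 7.11, 8.01 and 9.68 in ZD5, ZD7 and ZD8, a 1.46-fold range. On chromosome 2, there were 13.6, 3.07 and 3.59 reads of miR-27a for each of miR-23a in the SLS ovaries and 3.14, 7.71 and 3.66 in the LLS ovaries, a 4.43-fold range. ZD2 and ZD7 stood above the other 4 in the second ratio and within them in the first. For the third hairpin of each cluster the order was the other way. The ratio of miR-27b-3p to miR-24-2-5p on chromosome 10 ran from 123 in ZD2 to 420 in ZD12, a 3.42-fold range, and that of miR-27a to miR-24-1-5p on chromosome 2 from 22.8 in ZD2 to 56.1 in ZD8, a 2.46-fold range. Neither cluster had the narrower range in both ratios, given as a description over 6 ovaries.

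Between paralogues, miR-23b exceeded miR-23a by 2.42, 1.77 and 1.32 times in ZD2, ZD3 and ZD12 and by 1.71 and 2.36 times in ZD5 and ZD7. In ZD8 the ratio was 0.812, the only ovary with more miR-23a than miR-23b. miR-27b-3p exceeded miR-27a in all 6 ovaries, by 1.41 (ZD2) to 3.87 times (ZD5), and miR-221-3p exceeded miR-222 by 1.37 (ZD7) to 3.48 times (ZD8). The 2 arms of MIR27B were less in step than those of MIR126, since the ratio of miR-27b-3p to miR-27b-5p ran from 457 in ZD2 to 2024 in ZD8, a 4.43-fold range. For MIR126 the range was 1.86-fold and for MIR221 it was 2.11-fold. None of the 11 ratios computed differed between SLS and LLS beyond the spread (exact two-sided permutation p between 0.6 and 0.9, adjusted p = 0.9 for each), in a design of 3 against 3 that cannot go below p = 0.1.

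**Figure D2:**
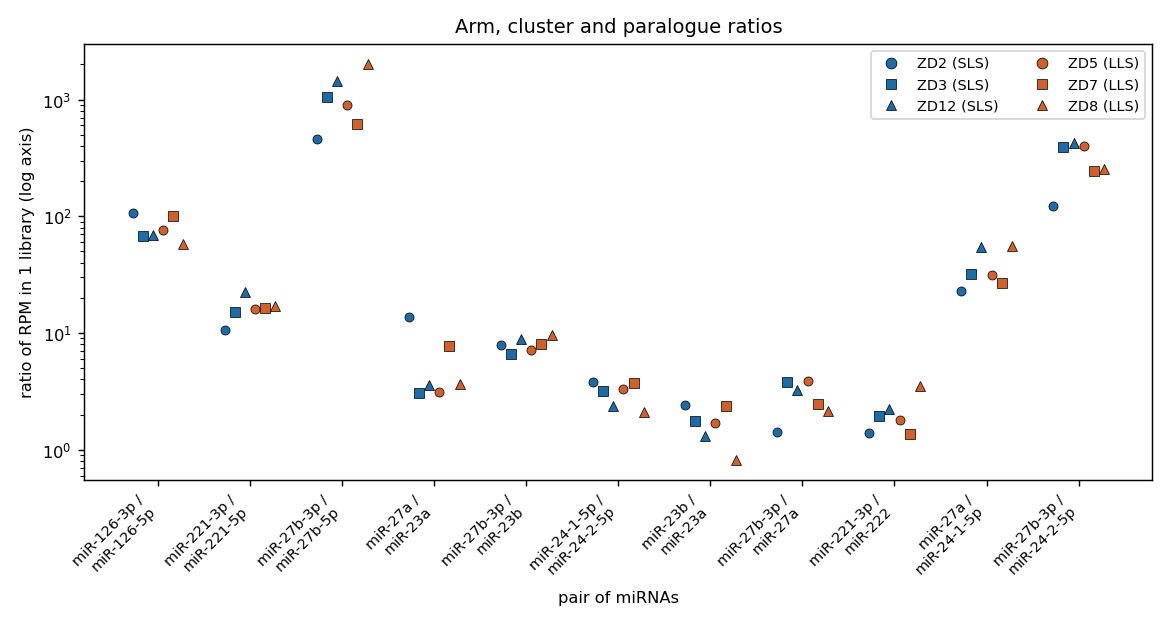
Ratio of the RPM of 2 miRNAs in the same library, on a log axis, for 11 pairs (2 arms of a hairpin, 2 hairpins of a cluster, or 2 paralogues). Points are the 6 ovaries (blue SLS, orange LLS). The ratio of miR-27b-3p to miR-23b spans 6.62 to 9.68, and that of miR-27a to miR-23a spans 3.07 to 13.6 with ZD2 and ZD7 on top.

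EGFL7 was at 31.1, 22.2 and 29.99 FPKM in ZD2, ZD3 and ZD12 and at 19.5, 29.5 and 12.2 FPKM in ZD5, ZD7 and ZD8. These rest on 1330 reads in ZD8 and between 3802 and 6413 in the other ovaries. ZD8 was the lowest and the other 5 lay within 1.60-fold of each other, with SLS and LLS ovaries overlapping. Its relative EGFL8 was far lower, at 0.867 to 1.98 FPKM in SLS and 0.587 to 2.53 FPKM in LLS, and was highest in ZD8.

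Whether miR-126 followed its host was tested over the 6 ovaries, with the small RNA and total RNA library of an ovary joined by its name. For miR-126-3p and EGFL7, on log2(value + 1), Pearson's r was 0.59 (exact permutation p = 0.221 over 720 pairings) and Spearman's rho was 0.49 (exact permutation p = 0.356). For miR-126-5p, r was 0.43 (exact permutation p = 0.385) and rho was 0.086 (exact permutation p = 0.919). With adjustment over the 7 relations of a miRNA with its host that were computed, p was 0.716 for both values of r. So an order shared by miR-126 and EGFL7 was not shown with 6 ovaries.

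The relation rested on single ovaries. ZD8 was lowest in both measures, and without it r of miR-126-3p with EGFL7 was -0.045 (exact permutation p = 0.95, n = 5). ZD12 went the other way, with EGFL7 at 29.99 FPKM, next to the highest, and miR-126-3p at 28118 RPM, next to the lowest. Without ZD12 r was 0.95 (exact permutation p = 0.0333, n = 5), a p not adjusted for the ovaries left out in turn. Without ZD8 and ZD5, the ovaries farthest from the median of EGFL7, r over the 4 left was 0.046 for miR-126-3p and -0.31 for miR-126-5p. Once each group's mean was removed, r of miR-126-3p was 0.70 (exact permutation p = 0.125).

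**Figure D3:**
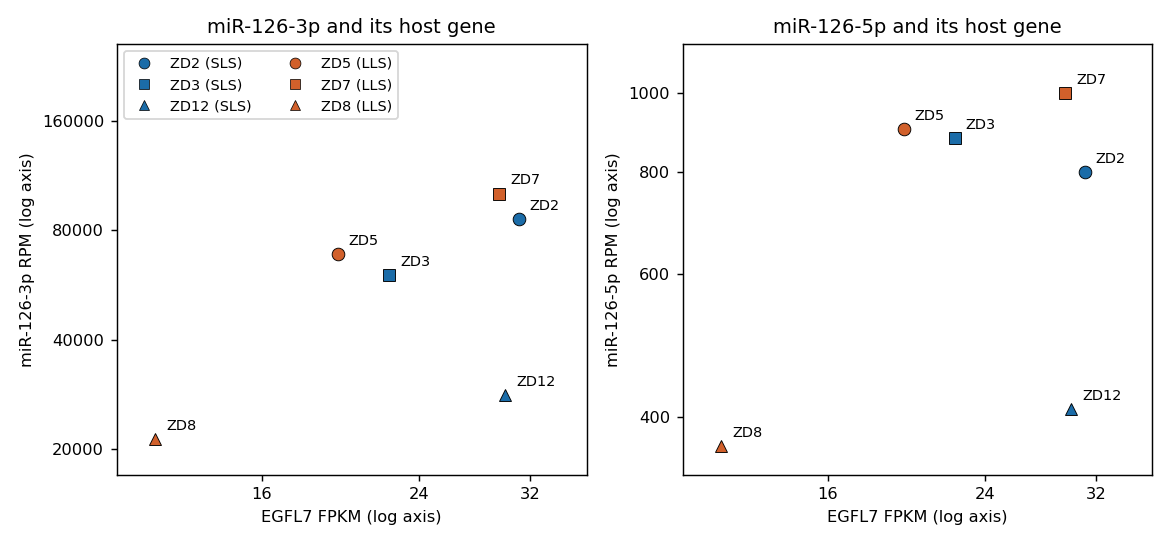
miR-126-3p (left) and miR-126-5p (right) in RPM against EGFL7 in FPKM of the same ovary, log axes, 1 point per ovary (blue SLS, orange LLS). ZD8 is low on both axes, and ZD12 has EGFL7 at 29.99 FPKM but miR-126-3p at 28118 RPM.

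Other genes give the scale of this value. Over the 12260 tested genes, r with miR-126-3p had a median of -0.43, and 1869 genes (15.2%) had an r at least as high as EGFL7. Without ZD8 the share was 29.7%. The difference between log2(RPM + 1) of miR-126-3p and log2(FPKM + 1) of EGFL7 was 11.39, 11.34 and 9.82 in ZD2, ZD3 and ZD12 and 11.72, 11.69 and 10.67 in ZD5, ZD7 and ZD8. It was thus between 11.34 and 11.72 in 4 ovaries and lower in ZD12 and ZD8, the ovaries with the least miR-126-3p, a range of 1.89. It did not differ between LLS and SLS beyond the spread (exact two-sided permutation p = 0.5). For miR-126-5p the same difference was 4.644, 5.25 and 3.726 in ZD2, ZD3 and ZD12 and 5.465, 5.035 and 4.815 in ZD5, ZD7 and ZD8. There ZD12 was again the lowest, but ZD2 was below ZD8 (LLS against SLS, exact two-sided permutation p = 0.4).

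The host of the chromosome 10 cluster, C10H9orf3, was at 7.42, 6.003 and 8.09 FPKM in the SLS ovaries and at 5.68, 5.05 and 10.02 FPKM in the LLS ovaries, highest in ZD8. r with it was -0.39 for miR-23b, -0.11 for miR-27b-3p, 0.24 for miR-24-2-5p and -0.33 for miR-24-3p, with exact permutation p between 0.456 and 0.882. These 4 relations were not told from no relation, and rho was between -0.37 and 0.20 (exact permutation p between 0.497 and 0.803). For miR-27b-5p, r was -0.96 (exact permutation p = 0.00278, adjusted p = 0.0195) and rho was -0.94 (exact permutation p = 0.0167, adjusted p = 0.117). It was negative in every fit that left out 1 ovary (-0.99 to -0.91) and was -0.85 without ZD8 and ZD7, the ovaries farthest from the median of the host. With each library centred on its median, r was -0.26 (exact permutation p = 0.589), and the median of log2(RPM + 1) over the tested miRNAs itself ran from 5.17 in ZD8 to 6.53 in ZD5. Over the 12260 tested genes, r with miR-27b-5p had a median of -0.44, and 232 genes (1.89%) had a lower r than the host, or 3.67% without ZD8. The inverse relation of this arm, read 59 to 156 times per library, was past the threshold on the deposited scale and not with median centring.

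The endothelial genes were read in the same ovaries as markers, and not as a measure of the amount of endothelial RNA. The summed FPKM of the 20 genes was 673.5, 594 and 552 in ZD2, ZD3 and ZD12 and 496, 737 and 320 in ZD5, ZD7 and ZD8, lowest in ZD8 as for EGFL7 and miR-126-3p. Of the 20, 14 were lowest in ZD8, against 26.3% of the 12260 tested genes. r with EGFL7 was above 0 for 18 of the 20 with a median of 0.82, where 41.8% of all tested genes were above 0. r with miR-126-3p was above 0 for 18 of the 20 with a median of 0.64, where 35.7% of all tested genes were. Without ZD8, r with EGFL7 was above 0 for 17 of the 20 with a median of 0.60, where 57.7% of all tested genes were above 0 and their median had turned from -0.22 to 0.24. Without ZD8, r with miR-126-3p was above 0 for 12 of the 20 with a median of 0.29, where 27.2% of all tested genes were above 0 and their median was -0.33. These are descriptions.

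Among the 4 endothelial genes of highest mean level, VWF, the von Willebrand factor of endothelial granules, was at 87.1, 67.8 and 56.9 FPKM in the SLS ovaries and 89.7, 127 and 42.3 FPKM in the LLS ovaries. KDR, the main receptor of VEGF, was at 64.1, 63.5 and 42.4 FPKM in the SLS ovaries and 68.8, 90.1 and 21.6 FPKM in the LLS ovaries. Both were highest in ZD7 and lowest in ZD8 and then ZD12, as was miR-126-3p, and they are the 2 of the list with the highest r with it (0.94 each). Of the 20 genes, 3 had this order (VWF, KDR and FLT1, another VEGF receptor), against 1.64% of the 12260 tested genes, given as a description. ZD12 was among the lowest 2 ovaries for 4 of the 20 (13.01% of all tested genes), and it was the highest for 2, CLDN5, a tight junction protein, and ECSCR (14.3% of all). PECAM1, an adhesion molecule of endothelial junctions, was at 87.7, 105 and 89.4 FPKM in the SLS ovaries and 49.0, 86.0 and 25.4 FPKM in the LLS ovaries. ENG, a coreceptor of TGF-beta signals, was at 91.4, 55.1 and 58.8 FPKM in the SLS ovaries and 51.4, 81.1 and 59.6 FPKM in the LLS ovaries. Thus ZD12, where miR-126-3p was low beside a high EGFL7, was low for VWF and KDR but not for PECAM1 and most of the list.

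Markers of blood cells did not have 1 order among them. Of 7 miRNAs known from blood cells, 5 were lowest in ZD8, as was miR-126-3p, 1 in ZD12 and 1 in ZD2. Over all 353 tested miRNAs, 39.9% were lowest in ZD8. Of the same 7, 5 were highest in ZD2, 1 in ZD3 and 1 in ZD5. The 1 lowest in ZD2 was miR-150, a lymphocyte miRNA, low where miR-126-3p was high. It was at 41.6, 95.5 and 70.5 RPM in ZD2, ZD3 and ZD12 and at 97.2, 64.2 and 94.2 RPM in ZD5, ZD7 and ZD8. miR-451, the abundant miRNA of red cells, was at 59104, 15530 and 1900 RPM in ZD2, ZD3 and ZD12 and at 9369, 7552 and 361 RPM in ZD5, ZD7 and ZD8, a 164-fold range that was lowest in ZD8 and ZD12. HBB, the beta chain of haemoglobin, was at 314, 63.1 and 52.9 FPKM in the SLS ovaries and at 54.8, 157 and 28.6 FPKM in the LLS ovaries, highest in ZD2 and ZD7. Of 4 erythroid genes 2 passed the filter, and the summed FPKM of all 4 was 53.8 to 320 in SLS and 28.9 to 161 in LLS. Platelets also carry miR-126. Of 4 platelet genes 3 were listed, and these were under the filter, with summed FPKM of 0.95 to 3.15, highest in ZD8. PPBP was at 0 in 4 ovaries. Of 4 leukocyte genes, 3 (PTPRC, CD68 and CD3E) were highest in ZD8 and 1 (CD14) was lowest there, and the sum was 17.4 to 29.0 FPKM over the 6 ovaries. The part of blood, platelets included, in the miR-126 values was not tested.

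miRNAs of the vessel wall's muscle and pericytes did not have the order of miR-126-3p. miR-143-3p was at 73887, 77243 and 71604 RPM in the SLS ovaries and 57946, 48264 and 90263 RPM in the LLS ovaries, lowest in ZD7 and highest in ZD8. miR-145-5p was lowest in ZD7 (1406 RPM) and ZD2 (1832 RPM) and highest in ZD8 (7001 RPM). The summed FPKM of 9 mural genes was 2048, 937 and 1295 in ZD2, ZD3 and ZD12 and 665, 931 and 1131 in ZD5, ZD7 and ZD8, highest in ZD2 and lowest in ZD5. ACTA2 and TAGLN, contractile genes at 1098 and 619 FPKM in ZD2, make up most of the sum in that ovary. Gene by gene, 4 of the 9 were highest in ZD8 and 0 were lowest there, where 44.6% and 26.3% of all tested genes were. Of the 4 mural miRNAs, 3 were highest in ZD8 and all 4 were lowest in ZD7. They are both arms of miR-143 and of miR-145, so they are not 4 separate members. The share of all tested miRNAs with these extremes is not given here, and the counts are a description. The lists were chosen with earlier results of these ovaries known, and their parts in the members' values were not tested.

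**Figure D4:**
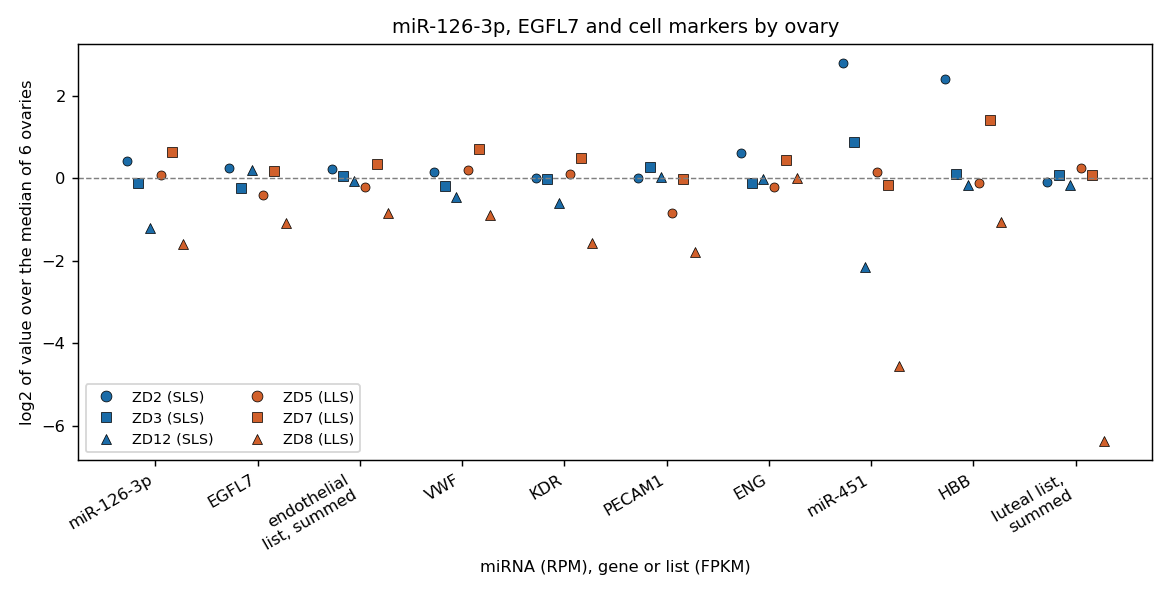
log2 of each value over its median across the 6 ovaries, for miR-126-3p and miR-451 (RPM), for EGFL7, VWF, KDR, PECAM1, ENG and HBB (FPKM) and for the summed FPKM of 20 endothelial and 7 luteal genes. Points are ovaries (blue SLS, orange LLS). ZD8 is the lowest in each but ENG, most of all for the luteal genes, and ZD12 is low for miR-126-3p and miR-451 but not for EGFL7 or PECAM1.

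By the named rule, the 5 miRNAs outside the members whose log2(RPM + 1) was most like that of miR-126-3p over the 6 ovaries were miR-22-3p (r 0.999), miR-450c-5p (0.994), miR-139-5p (0.993), miR-2411 (0.990) and miR-184 (0.988). Without ZD8 these were between 0.977 and 0.999. miR-22-3p was at 4333, 3273 and 1737 RPM in the SLS ovaries and 3497, 5046 and 1446 RPM in the LLS ovaries, the same order of ovaries as miR-126-3p. Among the members, r with miR-126-3p was 0.96 for miR-126-5p and 0.95 for miR-27b-5p, the closest, and -0.71 for miR-23a, the farthest. The 5 genes most like EGFL7 were EIF3I, ALDH4A1, OPLAH, DDX54 and NUDT1, with r between 0.995 and 0.998 over the 6 ovaries, and none of them is on the endothelial list. These were picked as the highest r values among all tested miRNAs and genes and are a description.

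Whether the members differ with litter size was asked in 1 fit over all features (limma on log2(value + 1)). Of the 353 tested miRNAs 0 were called (0%) where a call needs an adjusted p below 0.05 with a log2 fold change beyond 1 either way, and so 0 of the 13 members were. At an unadjusted p under 0.05 there were 0 miRNAs with limma, 4 with edgeR and 7 with DESeq2, and neither of the latter tools called any after adjustment. The SLS and LLS ovaries failed to overlap for 0 of the 13 members and for 10 of 353 miRNAs (2.83%). Log2 fold changes, LLS minus SLS, were above 0 for 10 members and below 0 for 3, all of them from the miR-221 and miR-222 cluster. The median was 0.16 against -0.011 over all tested miRNAs, of which 48.7% were above 0. The adjusted p was 0.997 for each member.

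For miR-126-3p the log2 fold change was 0.0089 (SE 0.69, 95% interval -1.57 to 1.59, n = 3 and 3, limma adjusted p = 0.997). Its mean was 58154 ± 29048 RPM (SD, n = 3) in SLS and 63731 ± 40020 RPM (SD, n = 3) in LLS. The interval takes in a 2-fold change either way, so a difference of that size was not detectable here. The members with the highest and lowest values were miR-23a at 0.50 (SE 0.61, 95% interval -0.90 to 1.89) and miR-222 at -0.40 (SE 0.64, 95% interval -1.86 to 1.06). Without ZD8 the value was 0.66 for miR-126-3p and turned to 0.37 for miR-222, 0.14 for miR-221-3p and 0.069 for miR-221-5p, with an adjusted p of at least 0.952 for each of them. In exact two-sided permutation tests p was between 0.3 and 1 for the 13 members.

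For EGFL7 the log2 fold change was -0.50 (SE 0.35, 95% interval -1.30 to 0.31, limma adjusted p = 0.999), from 27.8 ± 4.82 FPKM (SD, n = 3) in SLS and 20.4 ± 8.73 FPKM (SD, n = 3) in LLS. Without ZD8 it was -0.19. The exact two-sided permutation p was 0.2. Of the 12260 tested genes limma called 0 (0%), with 216 at an unadjusted p under 0.05. edgeR called 0 and DESeq2 called 22. Of the 20 endothelial genes 16 had a log2 fold change below 0, with a median of -0.32, against 47.4% of all tested genes with a median of 0.020, and 0 were called. Without ZD8, which was the lowest ovary for 14 of the 20, 13 were below 0 with a median of -0.18, against 66.0% of all tested genes with a median of -0.099. This alternative was chosen after seeing the data. PECAM1 and ECSCR, 2 of the 20, had groups that did not overlap, as did 5.12% of all tested genes.

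**Figure D5:**
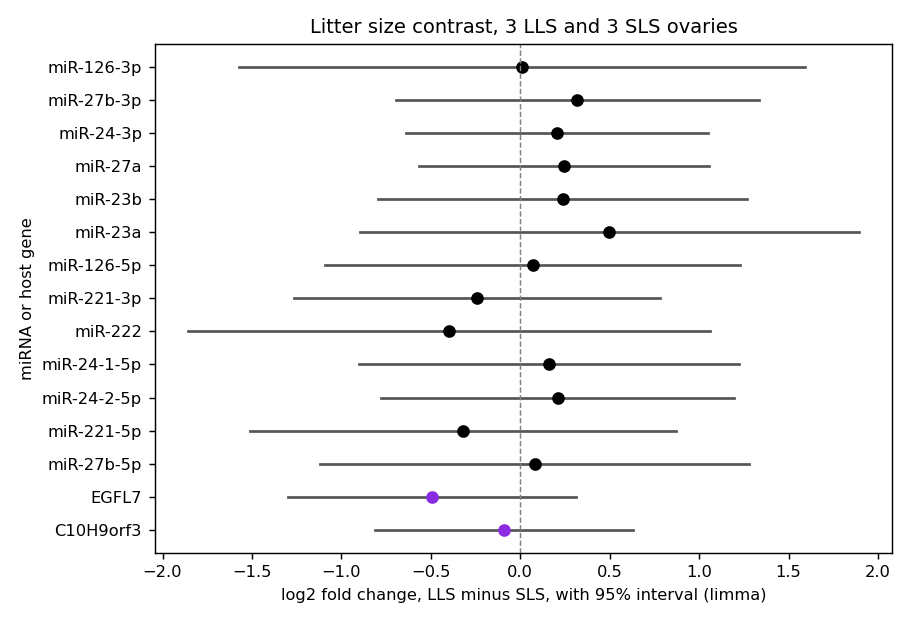
log2 fold change, LLS minus SLS, with its 95% interval from limma, for the 13 miRNAs (black, on log2(RPM + 1)) and for the host genes EGFL7 and C10H9orf3 (purple, on log2(FPKM + 1)), 3 ovaries per group. Each interval crosses 0, from miR-222 at -0.40 to miR-23a at 0.50.

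Known targets were read from lists of 8 genes for miR-126, 8 for miR-221 and miR-222, and 9 for miR-23, miR-24 and miR-27. 2 kinds of 7-letter match were sought in the sense strand of the longest annotated 3′ UTR per gene, the complement of bases 2 to 8 and the complement of bases 2 to 7 followed by A, which overlap where both occur. For miR-126-3p these are CGGTACG and GGTACGA, and they are found in 0.245 and 0.917% of 18749 annotated 3′ UTRs. This is rare beside miR-221-3p and miR-222 (ATGTAGC, 6.99%), miR-23 (AATGTGA, 15.1%), miR-27 (ACTGTGA, 13.6%) and miR-24-3p (CTGAGCC, 19.1%). Such shares are not matched for length. The annotated 3′ UTRs have a median of 920 nt, while among the listed targets SPRED1 has 4431 nt and PLK2 599 nt. The lists are of known targets, so counts of matches in them are a description. Of the 8 miR-126 targets, 0 hold CGGTACG and 3 hold GGTACGA. For miR-126-5p, 3 of the 8 hold TAATAAT (14.6% of all) and 3 hold AATAATA (16.7%). The 3 windows are shown, match in capitals, because they are the only matches of miR-126-3p in the list.
SPRED1, chr1:132906998-132907004: ttaactaaataataaGGTACGAattattac
ADAM9, chr15:47523956-47523962: aattataaactttaaGGTACGAagtattta
PLK2, chr16:37299604-37299610: agatggacaggtggtGGTACGAaaacaatt

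SPRED1, an inhibitor of RAS signalling, was at 7.29, 14.3 and 10.4 FPKM in ZD2, ZD3 and ZD12 and at 11.8, 9.27 and 11.8 FPKM in ZD5, ZD7 and ZD8. It was lowest in ZD2 and ZD7, the ovaries with the most miR-126-3p, but so were 2197 of the 12260 tested genes (17.9%). The other holders of GGTACGA did not have this order. PLK2, a kinase, was at 22.4, 24.98 and 13.4 FPKM in the SLS ovaries and at 24.8, 18.9 and 8.82 FPKM in the LLS ovaries, and like ADAM9 it was lowest in ZD8, where miR-126-3p was lowest too. By mean level the first 4 of the list were ADAM9, a membrane protease, CXCL12, a chemokine, VCAM1, an adhesion molecule for leukocytes, and PIK3R2, a subunit of PI3-kinase. VCAM1 was at 24.3, 33.7 and 24.8 FPKM in SLS and at 28.3, 35.7 and 42.2 FPKM in LLS, and PIK3R2 at 24.2, 12.6 and 24.2 FPKM in SLS and 14.9, 21.3 and 39.8 FPKM in LLS. ADAM9 was lowest in ZD8 (14.4 FPKM) and CXCL12 highest there (58.2 FPKM). Of the 8, 7 were tested and 0 were called, and DLK1 was under the filter. Of these 7, 5 had a log2 fold change above 0 and 2 below, with a median of 0.25, where 52.6% of all tested genes were above 0.

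For miR-221 and miR-222, 4 of the 8 targets hold ATGTAGC and 4 hold TGTAGCA (9.62% of all). CDKN1B, the cell cycle inhibitor p27, holds 2, shown because this seed is shared by both miRNAs.
CDKN1B, chr5:59732337-59732343: ctctaaaagcattggATGTAGCattgtgca
CDKN1B, chr5:59732264-59732270: tagtttttaccttttATGTAGCacataaac

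CDKN1B was at 11.8, 29.0 and 32.2 FPKM in the SLS ovaries and at 24.9, 20.6 and 49.6 FPKM in the LLS ovaries, highest in ZD8, where miR-222 was lowest. ZD8 was also the highest ovary for 5465 of the 12260 tested genes (44.6%). KIT, the receptor of stem cell factor, was at 144.6, 170 and 74.5 FPKM in SLS and 180, 130 and 27.1 FPKM in LLS, so that it too was lowest in ZD8. The annotated 3′ UTR of KIT, 774 nt long, holds 0 matches of either kind. TIMP3, an inhibitor of matrix proteases, ranged from 82.0 to 124 FPKM and ETS1, a transcription factor, from 17.4 to 42.1 FPKM. All 8 were tested and 0 were called, with a median log2 fold change of -0.11, and STAT5A, 1 of the 8, had groups that did not overlap, against 5.12% of all tested genes.

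For the other 3 families, 7 of the 9 targets hold ACTGTGA (miR-27), 2 hold AATGTGA (miR-23) and 2 hold CTGAGCC (miR-24-3p). Of the second kind, 7 hold CTGTGAA (miR-27, 17.1% of all), 3 hold ATGTGAA (miR-23, 16.2%) and 3 hold TGAGCCA (miR-24-3p, 15.3%). SPRY2, an inhibitor of growth factor signals, holds a miR-27 and a miR-23 match in a 3′ UTR of 798 nt, shown because SPRY2 is the best known target of this cluster in sprouting vessels.
SPRY2, miR-27, chr11:52154089-52154095: acaataatatttgcaACTGTGAaaaacaag
SPRY2, miR-23, chr11:52154013-52154019: ttgtacattcggaagAATGTGAatcaatca

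SPRY2 was at 28.8, 32.5 and 24.7 FPKM in the SLS ovaries and at 35.7, 33.0 and 30.03 FPKM in the LLS ovaries, a narrow range. PAK4, a kinase, ranged from 7.90 to 13.2 FPKM and SEMA6A, a repulsive guidance molecule, from 5.50 to 23.7 FPKM. DLL4, the Notch ligand of tip cells, was at 12.0, 11.7 and 10.5 FPKM in SLS and at 8.40, 7.48 and 5.65 FPKM in LLS, without overlap. It and TNFAIP3, an inhibitor of NF-kappa B signals, were the 2 of 9 with groups that did not overlap, against 5.12% of all tested genes. The log2 fold change of DLL4 was -0.61 (SE 0.26, limma adjusted p = 0.999), which did not pass. All 9 were tested and 0 were called. Of them 6 had a log2 fold change above 0 and 3 below, with a median of 0.20, where 52.6% of all tested genes were above 0. A match is a run of letters and was not tested as a site.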

How the data were processed

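Per the labels and the study's methods, the authors mapped total RNA reads to Sscrofa11.1 with HISAT2 and deposited gene FPKM, and their processing notes name BWA for the samples taken as small RNA, which the labels mark only as repeats of the same ovaries. The authors deposited miRNA values as reads scaled to the library total (RPM, named TPM in their table). How reads were counted on miRNAs is not given in the sources used here.

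Whole reads were recovered for 2618 of 2618 miRNA values above 0 and for 23483 of 23564 genes (99.7%), within 0.001 of a whole read, with 3 reads at 0.304 to 0.848 RPM. All 12 columns were used, and those of both tables carry the ovary names, by which they were joined. limma 3.58.1 (R 4.3.3, trended variance) was run on log2(value + 1) for features at 1 or more in at least 3 libraries (353 miRNAs, 12260 genes). edgeR 4.0.16 (quasi-likelihood) and DESeq2 1.42.0 on the recovered reads were alternatives, with a pseudocount of 0.1, no filter, median centring and each ovary left out. p-values were adjusted by Benjamini-Hochberg. Relations over 6 ovaries used exact permutation of all pairings. limma, edgeR and DESeq2 were also run on simulated reads with known changes, the outcome of which is not given here. Ovaries are assumed to come from separate sows, since the labels give no pooling.

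The members and lists were chosen with earlier results of these data known. Text names follow the rule fixed with them: every member and host, up to 4 genes of highest mean per list, and the 5 most alike miRNAs and genes, while SPRED1, PLK2, FLT1, CLDN5, ECSCR, STAT5A, TNFAIP3, DLK1, PPBP and miR-150 are named beyond it for a match, an overlap, an order or a filter, chosen after values were seen. Sequences are from the deposited table and the RefSeq Sscrofa11.1 genome.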

Additional observations from a re-analysis of the deposited data

How the results depend on the processing

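No member was called under any of the 11 alternatives, and the adjusted p stayed at or above 0.952. miRNAs called were 0 under each, with a smallest adjusted p of 0.0681 without ZD8. Genes called were 0 except for DESeq2 (22, 12 higher and 10 lower in LLS) and without ZD8 (21, 15 higher and 6 lower), so leaving out 1 ovary gave 0 to 21. For miR-126-3p with EGFL7, r was 0.54 to 0.70 under the other scales and -0.045 (without ZD8) to 0.95 (without ZD12) with 1 ovary left out.

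Leaving out 1 ovary turned the sign of 11 log2 fold changes: -0.46 to 0.66 for miR-126-3p, -0.28 to 0.52 for miR-126-5p, -0.18 to 0.52 for miR-27b-5p, -0.55 to 0.069 for miR-221-5p, -0.46 to 0.14 for miR-221-3p, -0.85 to 0.37 for miR-222, -0.065 to 0.52 for miR-27b-3p, -0.12 to 0.91 for miR-23a, -0.16 to 0.56 for miR-23b, -0.15 to 0.51 for miR-24-1-5p and -0.35 to 0.080 for C10H9orf3. With edgeR miR-126-3p was at -0.0097. miR-24-3p, miR-24-2-5p, miR-27a and EGFL7 kept their sign in all 11.

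r with 1 ovary left out was -0.39 to 0.83 for miR-126-5p with EGFL7, and with C10H9orf3 -0.35 to 0.11 for miR-27b-3p, -0.26 to 0.60 for miR-24-2-5p and -0.47 to 0.055 for miR-24-3p. With median centring r with C10H9orf3 turned to 0.092 for miR-23b, 0.28 for miR-27b-3p and 0.58 for miR-24-3p, and was -0.26 for miR-27b-5p and 0.70 for miR-24-2-5p. r of miR-126-5p with EGFL7 was then 0.20. The cause was not tested. No paired analysis was possible because the 2 groups share no replicate. With 6 ovaries, miR-126-3p could have differed by over 2-fold unseen, and values of miR-27b-5p rest on 59 to 156 reads.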
